A study of Saccharomyces cerevisiae with 4 samples.

Results

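The genes described here encode the enzymes of ergosterol synthesis in Saccharomyces cerevisiae and the proteins that assist, regulate or move sterols. They were chosen by name as a list of 31 genes, and a probe was kept where its annotated gene symbol was on the list. All 31 were measured, each by 1 probe on 4 arrays, among 4072 named genes tested. The list was divided by role into 9 genes from acetyl-CoA to farnesyl diphosphate, 3 from there to lanosterol, 10 from lanosterol to ergosterol, 3 helper proteins, 3 transcription factors and 3 sterol-binding or sterol-import proteins.

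The study compared yeast transformed with pAG305GPD-AAE13 with yeast transformed with pAG305GPD-ccdB. AAE13 is a plant malonyl-CoA synthetase, driven here by the constitutive yeast GPD promoter, and ccdB is the cassette of the vector without an insert. Both strains were grown with shaking at 30 °C in SD-drop out medium. Malonate was added to 0.2 mM once the OD600 was 0.1, to the control cultures too, and cells were collected at mid-log phase. Each of 4 two-colour arrays paired 1 AAE13 culture with 1 ccdB culture, 4 biological replicates per strain per the labels, with the AAE13 cDNA in the Cy5 channel for arrays 1 and 3 and the Cy3 channel for arrays 2 and 4. How many independent transformants stood behind the cultures of a strain is not given in the sources used here.

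Ergosterol is the main sterol of fungal membranes, as cholesterol is of animal membranes. Its synthesis begins with acetyl-CoA, which is also the precursor of malonyl-CoA, and passes through mevalonate, farnesyl diphosphate, squalene and lanosterol. The later steps consume oxygen, and some of their enzymes need haem or iron. Yeast growing in air makes its own sterol and takes up little from the medium, and the transcription factors Upc2 and Ecm22 raise the pathway genes when sterol falls.

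All values below are log2 ratios of AAE13 over ccdB, so that 1 stands for a 2-fold difference and a value below 0 for a lower level in the AAE13 strain. The order of the strains, AAE13 before ccdB, is the same in the series title and the design text, and on that basis this direction is called likely. The sample titles name AAE13 before ccdB for arrays 1 and 3 but ccdB before AAE13 for arrays 2 and 4. No source used here states the direction. The ratios of arrays with opposite dye orientation correlated at 0.429 to 0.699 across all probes, which is why the 4 arrays were read as running one way. An effect of the dyes that ran one way on all 4 arrays cannot be told apart from this reading. Deposited array medians ran from -0.174 to 1.41, so each array was set to a median of 0. Higher and lower therefore mean relative to the typical gene of the array. The centring lowered the median of all genes by 0.608, a shift that bears on the genes called lower below. Signal intensities were not analysed here, so whether a probe stood above background is unknown.

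Of the 31 sterol genes, 7 passed limma's moderated test at a Benjamini-Hochberg adjusted p under 0.05, against 24.8% of all genes tested. ERG7 and ERG28 were higher, and HMG1, ERG25, ERG3, HES1 and AUS1 were lower. Over all genes 13.0% were called higher and 11.8% lower. The share of sterol genes called was thus near the background, so the count is no result about the list. At an unadjusted p under 0.05 there were 10 of 31, against 39.8% of all genes. The list's median log2 ratio was -0.23, with 11 means above 0 and 20 below, where the median of all genes was -0.02. Of the 31 genes, 13 had 1 sign on every array, against 46.4% of all genes.

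Among the 9 genes that lead to farnesyl diphosphate, 1 was lower, 0 were higher and 8 did not pass. The gene that passed was HMG1 (YML075C), which encodes HMG-CoA reductase, the rate-limiting enzyme of the pathway. Its log2 ratios were -0.26, -0.85, -0.64 and -1.60 on arrays 1 to 4. All 4 lay below 0, with array 4 far lower than array 1. The mean of -0.84 ± 0.56 (SD, n = 4) was a 1.79-fold lower level (limma adjusted p = 0.0385). The call was lost without array 2 (adjusted p = 0.0619) or array 4 (0.131), and with the arrays not centred (0.718).

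HMG2 encodes the other HMG-CoA reductase of yeast, and its ratios were 0.56, -0.23, 0.41 and -0.73, a mean of 0.0021 ± 0.59 (SD, n = 4). Both arrays with AAE13 in Cy5 lay above 0 and both with AAE13 in Cy3 below. Set against each other within each array, HMG1 was below HMG2 on all 4, by -0.82, -0.62, -1.05 and -0.87, a mean difference of -0.84 ± 0.18 (SD, n = 4). The difference between the reductases thus varied less between arrays than either ratio. The probes of close gene copies can share signal, which was not tested.

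The other mevalonate-pathway genes did not pass, and several of their ratios varied widely between arrays. ERG10, the acetoacetyl-CoA thiolase that draws acetyl-CoA into the pathway, had -0.10, -0.97, 0.016 and -0.77, near 0 on the arrays with AAE13 in Cy5 and well below it on the others. IDI1, the isopentenyl diphosphate isomerase, had the opposite arrangement, with -1.14, 0.094, -1.10 and -0.12. Mevalonate kinase ERG12 lay below 0 on all arrays, at -0.17, -0.79, -0.21 and -0.78, and did not pass (limma adjusted p = 0.0977). The remaining means were 0.06 for HMG-CoA synthase ERG13, 0.14 for phosphomevalonate kinase ERG8, -0.41 for the decarboxylase MVD1 and -0.24 for farnesyl diphosphate synthase ERG20. The limma adjusted p-values of these 4 ran from 0.263 to 0.833.

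**Figure D1:**
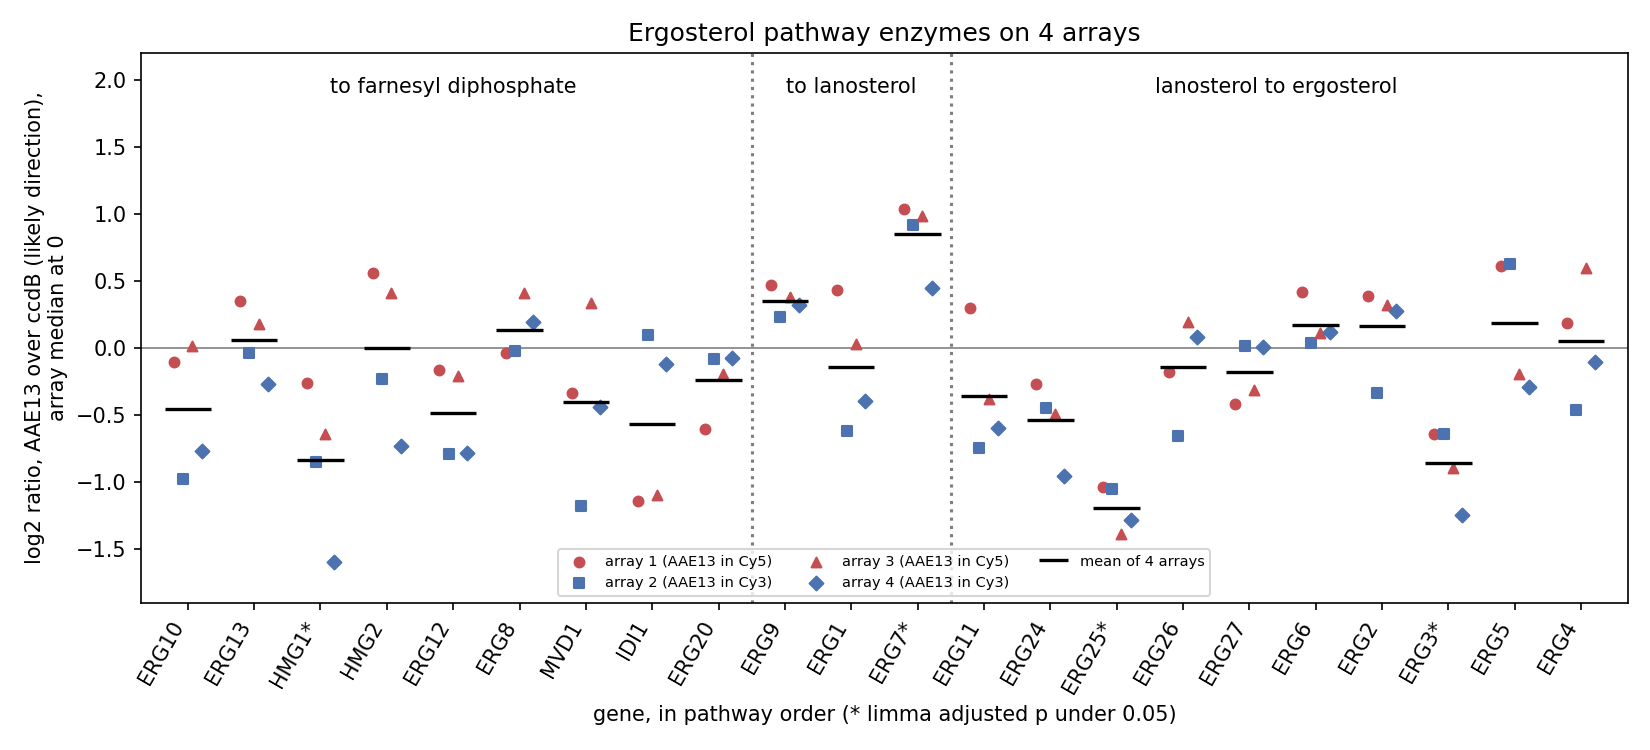
Log2 ratio of AAE13 over ccdB (vertical axis, likely direction, array median at 0) for the 22 pathway enzymes in the order of their reactions, with 1 point per array, coloured by the dye of the AAE13 sample, and a bar at the mean of 4 arrays. ERG7 stands above 0 on all arrays, ERG25, ERG3 and HMG1 stand below 0 on all arrays, and the red and blue points of ERG10, HMG2 and IDI1 lie apart.

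The 3 genes between farnesyl diphosphate and lanosterol included 1 that was higher and 2 that did not pass. ERG7 (YHR072W), the lanosterol synthase that closes the sterol rings, had ratios of 1.04, 0.92, 0.99 and 0.45. The 4 arrays lay well above 0, with array 4 the lowest. The mean of 0.85 ± 0.27 (SD, n = 4) was a 1.80-fold higher level (limma adjusted p = 0.0132), and the call was lost without array 1 (adjusted p = 0.0613). ERG9, squalene synthase, which commits farnesyl diphosphate to sterols, was at 0.47, 0.23, 0.38 and 0.32. These lay close together and above 0, and their SD of 0.10 was smaller than that of all but 2.7% of genes, but a mean of 0.35 did not pass (limma adjusted p = 0.14). ERG1, squalene epoxidase, the target of allylamine antifungals, was above 0 at 0.43 and 0.03 with AAE13 in Cy5 and below it at -0.62 and -0.39 with AAE13 in Cy3.

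Of the 10 genes from lanosterol to ergosterol, 2 were lower, 0 were higher and 8 did not pass. ERG25 (YGR060W), an oxygenase that takes part in removing methyl groups from the sterol ring, had ratios of -1.04, -1.05, -1.39 and -1.28. The arrays nearly coincided. The mean was -1.19 ± 0.17 (SD, n = 4), a 2.28-fold lower level (limma adjusted p = 0.0027). ERG3 (YLR056W), a sterol desaturase near the end of the pathway, had -0.64, -0.64, -0.89 and -1.25, a mean of -0.85 ± 0.29 (SD, n = 4; limma adjusted p = 0.0136), which was 1.81-fold lower. Its call was lost without array 4 (adjusted p = 0.0686). With the arrays not centred neither gene passed, ERG25 at -0.58 (adjusted p = 0.321) and ERG3 at -0.25 (0.697). Erg25 and Erg3 both use iron that is not held in haem, a property noted after their values were seen. Whether it bears on their ratios was not tested.

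The 2 cytochrome P450 enzymes of the pathway, which hold iron in haem, did not pass. ERG11, the lanosterol demethylase that azole drugs inhibit, had 0.30, -0.75, -0.38 and -0.59, a mean of -0.36 ± 0.46 (SD, n = 4). ERG5, a desaturase of the sterol side chain, had 0.61, 0.62, -0.19 and -0.29, with arrays 1 and 2 above 0 and arrays 3 and 4 below. Their adjusted p-values in limma were 0.249 and 0.553. The sterol reductase ERG24 was below 0 on all arrays, at -0.27, -0.45, -0.49 and -0.95, and missed the threshold (adjusted p = 0.0633, limma).

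ERG26 and ERG27, the dehydrogenase and ketoreductase that work in a complex with Erg25, were at -0.14 ± 0.38 and -0.18 ± 0.22 (SD, n = 4). Neither shared the size of the ERG25 ratio. The methyltransferase ERG6, which adds the methyl group that sets ergosterol apart from cholesterol, was above 0 on all arrays at 0.42, 0.04, 0.12 and 0.12, with a mean of 0.17. The isomerase ERG2 was at 0.39, -0.33, 0.32 and 0.28, so that array 2 stood apart from 3 arrays that nearly coincided. ERG4, the reductase of the last step, had a mean of 0.05 ± 0.45 (SD, n = 4). These 5 genes had limma adjusted p-values from 0.459 to 0.862.

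Taken in pathway order, the median log2 ratio was -0.41 for the steps to farnesyl diphosphate, 0.35 for the steps to lanosterol and -0.16 for the late steps. On arrays 1 to 4 the medians of the first block were -0.17, -0.23, 0.016 and -0.44, and those of the squalene to lanosterol block were 0.47, 0.23, 0.38 and 0.32. The middle block, whose median was the ERG9 value throughout, was above the first on every array. The late block had 0.0052, -0.45, -0.25 and -0.20, and was above the first block on 2 arrays and below it on 2. The late minus mevalonate difference averaged -0.02 ± 0.26 (SD over arrays, n = 4), smaller than its spread. With the arrays not centred the 3 medians were 0.20, 0.96 and 0.45, so that the sign of the first and late blocks depends on the centring, which shifts all genes alike and leaves their order.

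Of the 3 helper proteins, ERG28 was higher and 2 did not pass. ERG28 (YER044C) encodes the membrane protein that tethers the Erg25, Erg26 and Erg27 complex in the endoplasmic reticulum. Its ratios were 1.37, 1.47, 0.68 and 1.56, all above 0 and with array 3 the lowest. The mean of 1.27 ± 0.40 (SD, n = 4) was a 2.41-fold higher level (limma adjusted p = 0.00464), in contrast to the lower ERG25. Without centring the ERG28 mean was 1.88 (adjusted p = 0.000249).

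The electron donors of the pathway differed in their spread. NCP1, the reductase that passes electrons to cytochrome P450 enzymes and to squalene epoxidase, had 0.04, 0.89, -0.09 and -1.76. Arrays 2 and 4 lay on opposite sides of 0 although AAE13 was in Cy3 on both, and the SD of 1.11 exceeded that of 97.8% of genes. CYB5, cytochrome b5, had -0.12, -0.31, -0.74 and 0.12, a mean of -0.26 ± 0.36 (SD, n = 4). Neither passed (limma adjusted p = 0.684 and 0.353).

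None of the 3 transcription factor genes passed limma's test, with 1 of them, SUT1, at an unadjusted p under 0.05, and none passed an unmoderated test. Of all genes 39.8% had an unadjusted limma p under 0.05, and the unmoderated test called 143 of 4072. UPC2, which with ECM22 activates the pathway genes, had -0.75, -0.93, 0.63 and 0.32. Arrays 1 and 2 lay below 0 and arrays 3 and 4 above, so the mean of -0.18 describes none of them. ECM22, its close relative, was at -0.12, -0.31, -0.20 and -0.28. That SD of 0.09 was smaller than that of all but 1.7% of genes, and the mean of -0.23 did not pass (limma adjusted p = 0.32). UPC2 was below ECM22 on arrays 1 and 2 and above it on arrays 3 and 4. SUT1, a factor that promotes sterol uptake, had 0.0052, -0.25, -0.74 and -0.94, a mean of -0.48 ± 0.43 (SD, n = 4; limma adjusted p = 0.123).

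In sterol transport 2 of 3 genes were lower, with the mean ratios farthest from 0 in the list. Read as Cy5 over Cy3 they were at 0.25 for AUS1 and 0.05 for HES1, and the mean farthest from 0 was that of IDI1, at -0.55. AUS1 (YOR011W) encodes an ATP-driven importer that brings sterol in from outside the cell. Its ratios were -2.98, -2.74, -1.40 and -2.62, all far below 0 and with array 3 the closest to it. The mean of -2.44 ± 0.71 (SD, n = 4) was a 5.41-fold lower level (limma adjusted p = 0.0014). AUS1 also passed with the arrays not centred, at -1.83 (adjusted p = 0.00039). The related importer gene PDR11, named after its values were seen, was at -0.50, -1.52, 0.11 and -1.16 and did not pass (limma adjusted p = 0.0767).

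HES1 (YOR237W) and KES1 encode oxysterol-binding protein homologues, which bind sterols and carry them between membranes. HES1 had ratios of -1.86, -1.50, -1.40 and -1.97, a narrow range well below 0. The mean was -1.68 ± 0.28 (SD, n = 4), a 3.21-fold lower level (limma adjusted p = 0.00105), or -1.08 with the arrays not centred (adjusted p = 0.0577). KES1 was at 0.25, -0.19, 0.28 and 0.08, a mean of 0.11 that did not pass (limma adjusted p = 0.67). HES1 was below KES1 within every array, with differences of -2.12, -1.31, -1.68 and -2.06 and a mean of -1.79 ± 0.38 (SD, n = 4). Of the 3 related pairs examined, the reductases and the oxysterol-binding homologues differed in 1 direction on all 4 arrays, and UPC2 and ECM22 did not.

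**Figure D2:**
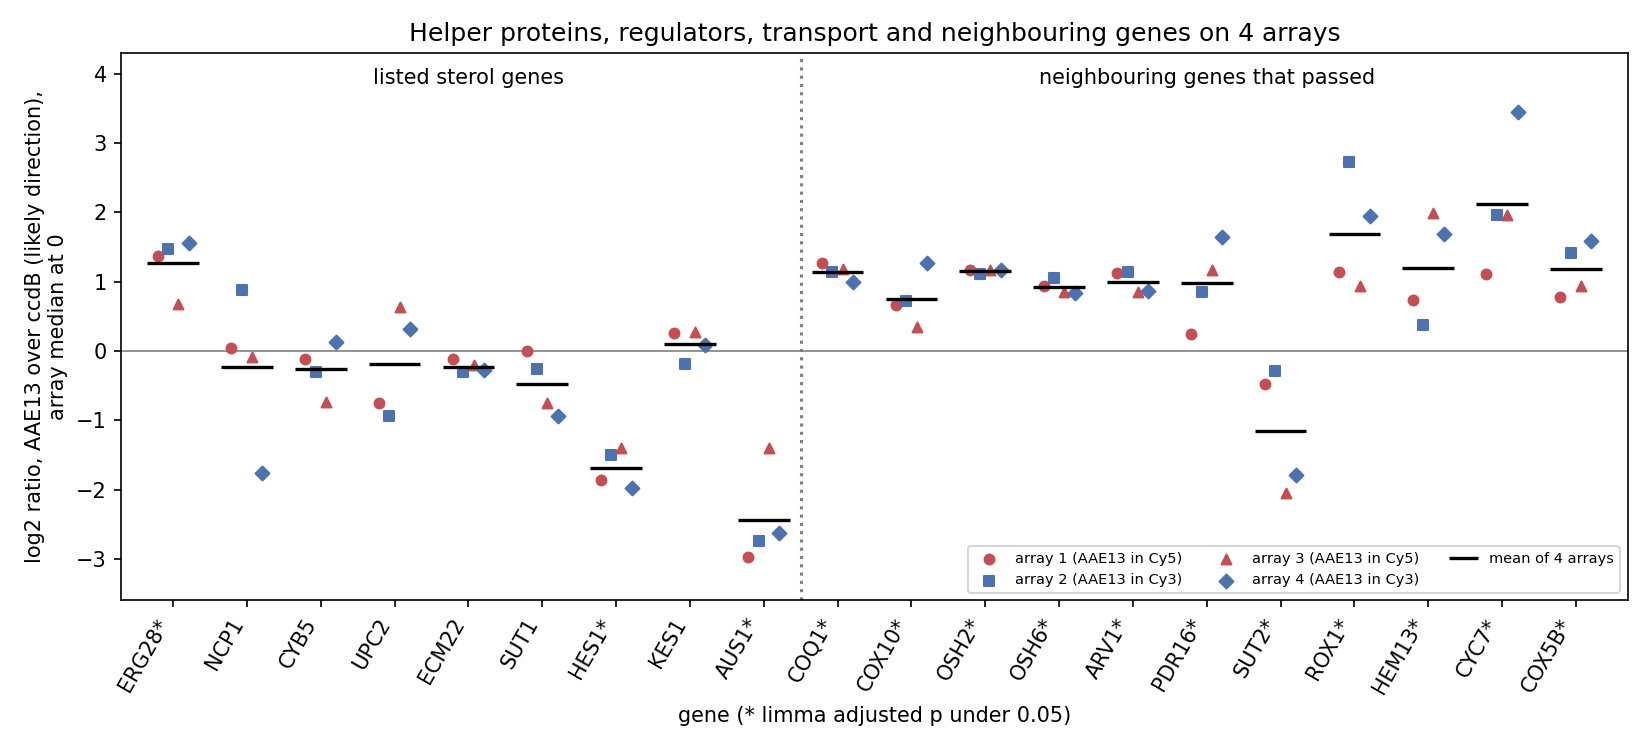
Log2 ratio of AAE13 over ccdB (vertical axis, likely direction, array median at 0) for the 9 helper, regulator and transport genes of the list and for 11 genes of neighbouring lists that passed, with 1 point per array, coloured by the dye of the AAE13 sample, and a bar at the mean. AUS1 and HES1 lie far below 0 and ERG28 above it, the arrays of NCP1 and UPC2 lie on both sides of 0, and those of OSH2 nearly coincide.

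Genes next to the pathway were followed in 5 further lists. Of 19 other genes of sterol binding and transport, 13 were measured, and 4 were higher, 0 lower and 9 did not pass, where 13.0% of all genes were called higher. OSH2, another oxysterol-binding homologue, had ratios of 1.17, 1.11, 1.17 and 1.17 and a mean of 1.16 ± 0.03 (SD, n = 4; limma adjusted p = 0.00248). OSH6, which carries phosphatidylserine rather than sterol, was at 0.92 ± 0.10 (SD, n = 4; adjusted p = 0.00612, limma). Both stood above 0 on all arrays, where HES1 stood below. The homologues OSH3, SWH1 and OSH7, named after their values were seen, did not pass. OSH3 had -0.70, -0.83, 0.04 and -0.94 (limma adjusted p = 0.0681). SWH1 and OSH7 had means of -0.17 and 0.11, with arrays on both sides of 0. ARV1, a gene of sterol and lipid homeostasis of the endoplasmic reticulum, reached 0.99 ± 0.16 (SD, n = 4; limma adjusted p = 0.00529). PDR16, a phosphatidylinositol transfer protein gene, had 0.25, 0.85, 1.17 and 1.65 (limma adjusted p = 0.0247, or 0.102 without array 4).

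Of 13 genes of the branches that use isoprenoid diphosphates for other products, 12 were measured, and 2 were higher, 0 lower and 10 did not pass. Over all genes 13.0% were called higher. COQ1, which makes the side chain of ubiquinone, was at 1.26, 1.14, 1.19 and 0.99, a 2.21-fold higher mean (limma adjusted p = 0.00275). COX10, which attaches a farnesyl group to haem for cytochrome c oxidase, had a mean of 0.75 ± 0.38 (SD, n = 4; limma adjusted p = 0.0307), and its call was lost without array 1, 2 or 4 (0.0831, 0.057 and 0.119). Of 7 genes of sterol esters and sterol acetate, 4 were measured. Limma called 0 of them, against 24.8% of all genes, and the unmoderated test called 0, against 143 of 4072 genes. At an unadjusted limma p under 0.05 there were 2 of 4, against 39.8% of all genes. The median of the 4 was 0.33.

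Among 12 genes that otherwise control sterol genes or enzymes, 9 were measured, of which 1 was higher, 1 lower and 7 did not pass. The shares of all genes were 13.0% higher and 11.8% lower. An unmoderated test called 0 of the 9 (lowest adjusted p = 0.12), against 143 of 4072 genes. ROX1, a repressor of genes induced without oxygen, had 1.15, 2.72, 0.94 and 1.95, a 3.22-fold higher mean (limma adjusted p = 0.00729, or 0.05, narrowly missing the threshold, without array 4). All arrays were above 0 and those with AAE13 in Cy3 were the higher ones. SUT2, a relative of SUT1, had -0.47, -0.29, -2.05 and -1.79, with arrays 3 and 4 much lower than arrays 1 and 2 (limma adjusted p = 0.0383). SUT2 did not pass when array 3 (adjusted p = 0.0682) or array 4 (0.155) was left out, when dye orientation was a term (0.0713) or when the arrays were not centred (0.354).

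All 12 genes of the list induced in the absence of oxygen or sterol were measured, and 3 were higher, 0 lower and 9 did not pass. CYC7, a cytochrome c isoform, had 1.11, 1.97, 1.96 and 3.44, a 4.34-fold higher mean (limma adjusted p = 0.00516). COX5B, a cytochrome c oxidase subunit isoform, had 0.78, 1.41, 0.94 and 1.59 (limma adjusted p = 0.0056). HEM13, an enzyme of haem synthesis, had 0.74, 0.38, 1.99 and 1.69 (limma adjusted p = 0.0225, or 0.105 without array 4). The cell wall genes DAN1 and TIR1, which Upc2 also activates, did not pass, at -0.24 ± 0.65 and 0.52 ± 0.62 (SD, n = 4; limma adjusted p = 0.529 and 0.158). Over the 12 genes the median was -0.11, with 4 means above 0 and 8 below, and 13.0% of all genes were called higher. An unmoderated test called 0 of the 12 (lowest adjusted p = 0.077), against 143 of 4072 genes.

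The ratios were also set out by the dye that the AAE13 sample carried. Of 31 genes, 25 had a higher ratio with AAE13 in Cy5 than in Cy3, against 48.1% of all genes. The median of the list was -0.04 on the arrays with AAE13 in Cy5 and -0.29 on those with AAE13 in Cy3, where the medians of all genes were -0.06 and 0.0044. The median difference between the orientations was 0.60 for the steps to farnesyl diphosphate, 0.33 for the steps to lanosterol and 0.24 for the late steps. It is a description of the list, without a test. Limma's test of the orientation in single genes called 0 of the 31, where 0% of all genes were called. At an unadjusted p under 0.05 there were 5 of 31, against 17.7% of all genes.

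The genes with the widest gap between orientations were in the mevalonate block. IDI1 was at -1.12 with AAE13 in Cy5 and -0.01 in Cy3, a difference of -1.10 (limma adjusted p = 0.22). HMG2 and ERG10 differed the other way, by 0.96 and 0.83 (limma adjusted p = 0.225 for both). In 5 genes, ERG13, HMG2, ERG1, ERG27 and ERG4, both arrays of 1 orientation were above 0 and both of the other below, a pattern shown by 13.5% of all genes. The part of the dyes in these ratios cannot be told apart from that of the cultures, since each orientation holds 2 different pairs of cultures. For the 7 called genes the orientations agreed in sign, and ERG25 (-1.21 and -1.17) and HES1 (-1.63 and -1.73) had nearly the same mean in both.

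**Figure D3:**
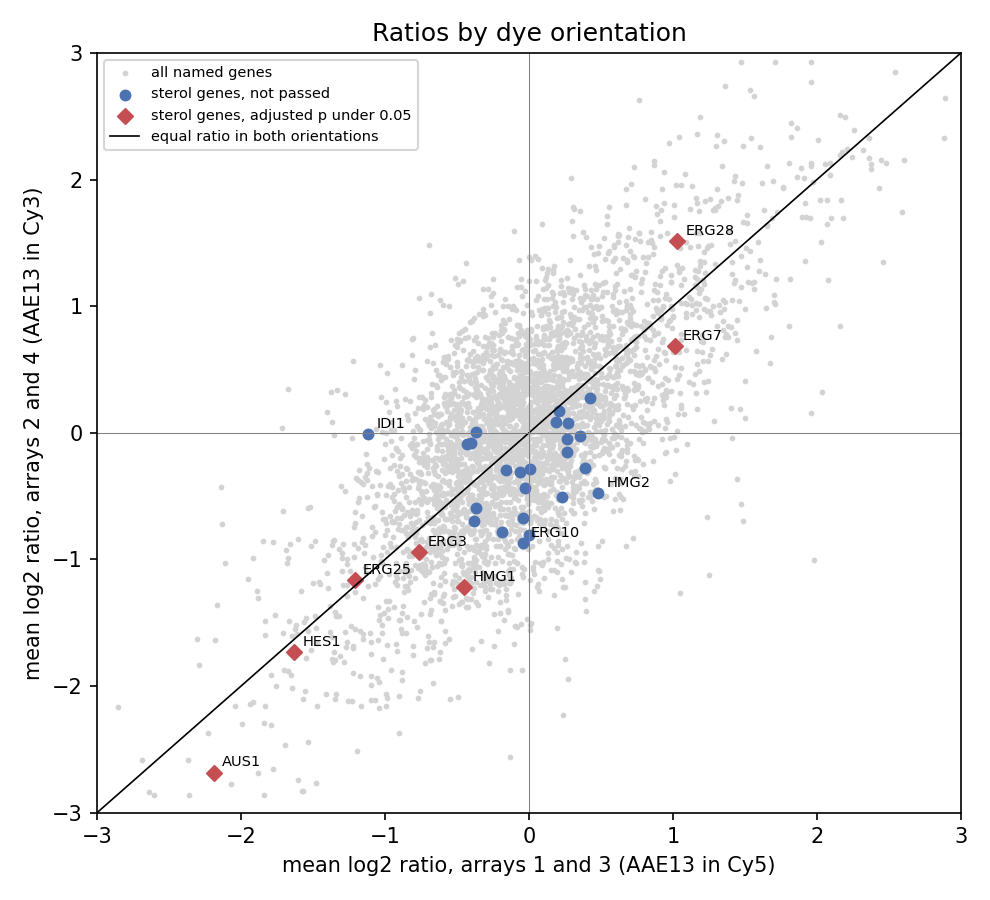
Mean log2 ratio on the arrays with AAE13 in Cy5 (horizontal axis) against the mean on those with AAE13 in Cy3 (vertical axis) for all named genes (grey) and the 31 sterol genes, with the 7 that passed as red diamonds and 31 other genes lying beyond the plotted range of 3. ERG25, ERG3 and HES1 lie near the line of equal ratios, most of the other sterol genes lie below it, and IDI1 lies far above it.

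How the ratios are scaled and read decided several of these calls. With the arrays not centred, 3 of the 7 genes passed: ERG7 at 1.46, ERG28 at 1.88 and AUS1 at -1.83. In that setting 18.3% of all genes were called higher and 1.35% lower, and 26 of the 31 sterol genes had a mean above 0. With a dye term beside the mean, 1276 of the 4072 genes passed (31.3%), 615 of them lower (15.1%). Of the 31 sterol genes 11 passed, 9 of them lower, with ERG10, ERG12, IDI1 and ERG24 added (limma adjusted p = 0.043, 0.0337, 0.0269 and 0.0458). If the ratios are instead read as Cy5 over Cy3, limma called none of the 31, with 1 at an unadjusted p under 0.05, and none of the 4072, with 154. The adjusted p of all 7 genes was then 0.999, the highest over their 14 alternatives, of which the lowest were 0.0276 for HMG1, 0.00694 for ERG7, 0.00247 for ERG25, 0.0133 for ERG3, 0.000249 for ERG28, 0.000675 for HES1 and 8.4e-05 for AUS1.

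**Figure D4:**
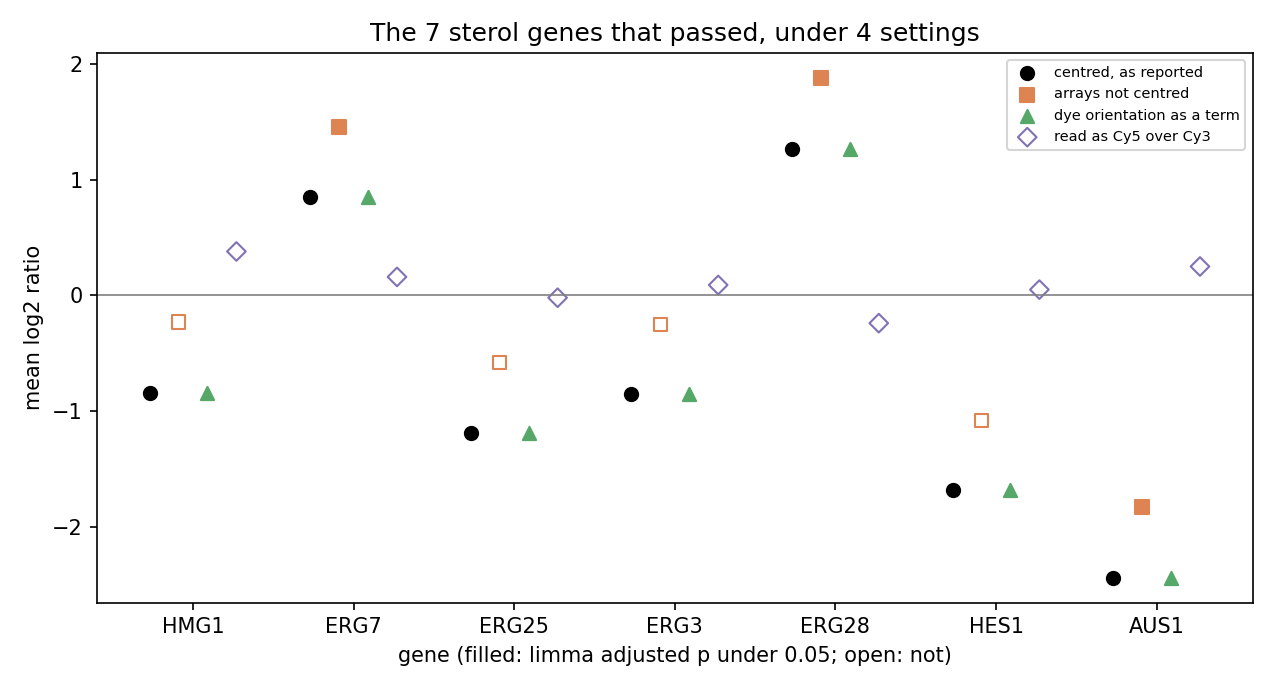
Mean log2 ratio (vertical axis) of the 7 sterol genes that passed, under 4 settings, with filled symbols for a limma adjusted p under 0.05 and open symbols otherwise. ERG7, ERG28 and AUS1 are filled both with and without centring, HMG1, ERG25, ERG3 and HES1 are open without it, and all 7 lie between -0.24 and 0.38 when the ratios are read as Cy5 over Cy3.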

How the data were processed

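The 4 two-colour arrays set 4 AAE13 cultures against 4 ccdB cultures, with oligo-dT primed cDNA and Alexa dyes per the labels. The authors deposited 1 log2 ratio per probe and array, 6256 probes with 4 missing values. Base 2 is inferred from the range of the values. Of the deposited values 49.9% carry a final 5 in the fourth decimal and the others stop at the third, as means of 2 values would. No source used here gives the normalization, the software or the genome build. The 4075 probes that the platform annotation gives 1 gene were used, and the 2181 unnamed ones were not. Symbols and locus tags were matched to RefSeq assembly R64: 3939 were current, 125 were updated and 8 kept. Probes of a gene were averaged, genes on at least 3 arrays were kept, and arrays were centred on their medians. Each gene was tested against 0 with limma 3.58.1 (R 4.3.3), two-sided and adjusted by Benjamini-Hochberg over 4072 genes. Dye orientation was tested as a second coefficient. SD values are over arrays, whose number, 4, limits the precision. Limma's p-values set each mean against the spread between these arrays, moderated towards the spread of all genes. All listed genes are named, and of neighbouring lists up to 3 that passed, with OSH3, OSH6, OSH7, SWH1, DAN1, TIR1 and PDR11 named besides. The members, lists and tests were chosen with earlier results of these data known. The script was tested on simulated data. Plots used Python 3.11.15 and matplotlib 3.10.9. Direction, dye term, centring, scaling, filters, weights, moderation, threshold and each array were varied.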

Additional observations from a re-analysis of the deposited data

Results flagged for a closer look

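Of 48 series of 4 array values examined (42 named genes and 6 block medians), 2 held 1 array far from the other 3, where chance gives about 1 in 20. ERG2 was at -0.33 on array 2 and between 0.28 and 0.39 on the others. OSH2 was at 1.11 on array 2 and at 1.17 on the others, within an SD of 0.03.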

How the results depend on the processing

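The test reported is itself paired, since each ratio sets 1 AAE13 culture against 1 ccdB culture of an array, and no further replicate block could be fitted. Read as Cy5 over Cy3, 0 sterol genes were higher, 0 lower and 0 of all genes called, and the medians of the mevalonate, squalene to lanosterol and late blocks were 0.30, 0.16 and 0.12. Of the 31 sterol means, 16 changed sign there and 25 lay above 0 in place of 11. Of the genes called as reported, those that reversed, without a call, were HMG1 (0.38), ERG3 (0.09), ERG28 (-0.24), HES1 (0.05), AUS1 (0.25), COX10 (-0.25), OSH6 (-0.03), ARV1 (-0.01), PDR16 (-0.27), ROX1 (-0.65), CYC7 (-0.59) and COX5B (-0.32). With a dye term 9 sterol genes were lower, as were 615 of all genes in place of 482. With the arrays not centred 1 was lower, the medians were 0.20, 0.96 and 0.45, and 1 gene, IDI1, was called for dye orientation. The unmoderated test called 0 sterol genes higher, 2 lower (ERG25 and HES1) and 143 of all genes. Of the neighbouring genes called as reported, COQ1, OSH2, OSH6 and ARV1 kept their calls in that test. COX10, PDR16, SUT2, ROX1, HEM13, CYC7 and COX5B lost theirs, with unmoderated adjusted p-values from 0.077 to 0.212. Leaving out each array in turn gave 1 to 2 sterol genes higher, 3 to 5 lower and 427 to 1045 of all genes. Scaling, complete genes, 1 probe per gene, all probes, array weights and robust moderation left the same 7 sterol genes called, and at an adjusted p under 0.1 ERG12 and ERG24 joined them. The causes were not tested. Signal over background, which was not analysed here, limits how firmly the fold sizes of AUS1 and HES1 can be read.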
